A study of Mus musculus with 24 samples.

Results

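The upper small intestine (USI) of the mouse was compared between 12 and 4 months of age by RNA-seq. The members were the 6 libraries whose titles name this section and these ages, out of 24 libraries in the series. Each age had 3, told apart by the letters A, B and C. The other libraries came from the lower small intestine (LSI) and the colon at 4, 12 and 24 months and from the USI at 24 months. All mice were untreated and carried Lgr5-EGFP-IRES-CreERT2, a knock-in of a fluorescent reporter and an inducible Cre at the gene of the stem cell receptor Lgr5, so that both ages share this allele. The libraries were made from pooled epithelial cells that had not been sorted for the reporter, and the number of mice behind each RNA pool is not known here, and the p-values therefore reflect variation among these pools, part of which may be technical. The question was which genes differ in expression between young adult and middle-aged epithelium.

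The epithelium of the upper small intestine is renewed from stem cells at the base of the crypts. Their daughters divide, move up and become absorptive enterocytes, which carry the digestive enzymes and transporters of the villus, or secretory cells, namely Paneth, goblet, tuft and enteroendocrine cells. Lymphocytes lie between the epithelial cells, and macrophages, fibroblasts and vessels lie in the tissue below. A preparation of epithelium can carry a share of all of them. Cells that are loosened from the tissue also switch on immediate early genes within minutes, and a load of unfolded protein in the endoplasmic reticulum switches on another set of genes, the unfolded protein response.

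Each of the 6 libraries held between 35470986 and 38203709 counts. Library C of 4 months stood apart from libraries A and B of its own age. A chi-square of the counts, divided by its degrees of freedom, was 290 for A against C and 298 for B against C, whereas it was 51.7 for A against B and 44.2 to 126 among the 12-month libraries. Across genes, which are not independent replicates, library C of 4 months correlated with the 12-month libraries at 0.990 to 0.995 and with A and B of its own age at 0.969 each. The range against the 12-month libraries was 0.965 to 0.987 for A and 0.965 to 0.983 for B. Enterocyte and lymphocyte genes were many times higher in library C than in A and B, with values given below. Library B of 4 months held 5749 counts on Y-chromosome genes and the other 5 libraries 4 or fewer. Of the 6 libraries, only this one thus held a clear share of male cells. Sex was therefore not balanced between the ages, and the fit had no term for it. The part of sex in the differences between the ages was not tested. The markers of the labelled tissue were present in all 6 libraries: none of the 22 enterocyte, 20 stem cell or 19 Paneth cell genes was at 0 throughout.

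Of 17491 genes tested, 7 were higher at 12 months at an adjusted p under 0.05, or 0.0400% of genes, and 1 was lower, or 0.00572%, with edgeR's quasi-likelihood test. The genes that rose were Chac1, Ddr2, Ccr2, H2-M2, Hbegf, Klf6 and Herpud1, by between 1.78-fold and 9.39-fold. Rps4y2 fell by 1.59 on the log2 scale. At an unadjusted p under 0.05, 4.08% of genes were higher and 4.83% lower, and the values of the ages did not overlap for 4.16% of genes in the higher and 4.55% in the lower direction. The count depended on the libraries and on the fit. Without the 4-month C library 1230 genes were higher and 485 lower, and the 8 genes were among them. Without the 12-month B library none was higher (979 genes at an unadjusted p under 0.05, in both directions). Fitted to the 6 USI libraries alone, no gene passed (609 at an unadjusted p under 0.05), whereas DESeq2 called 65 higher and 7 lower, and a fit with the library letter as a block called 18 higher and 1 lower.

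**Figure D1:**
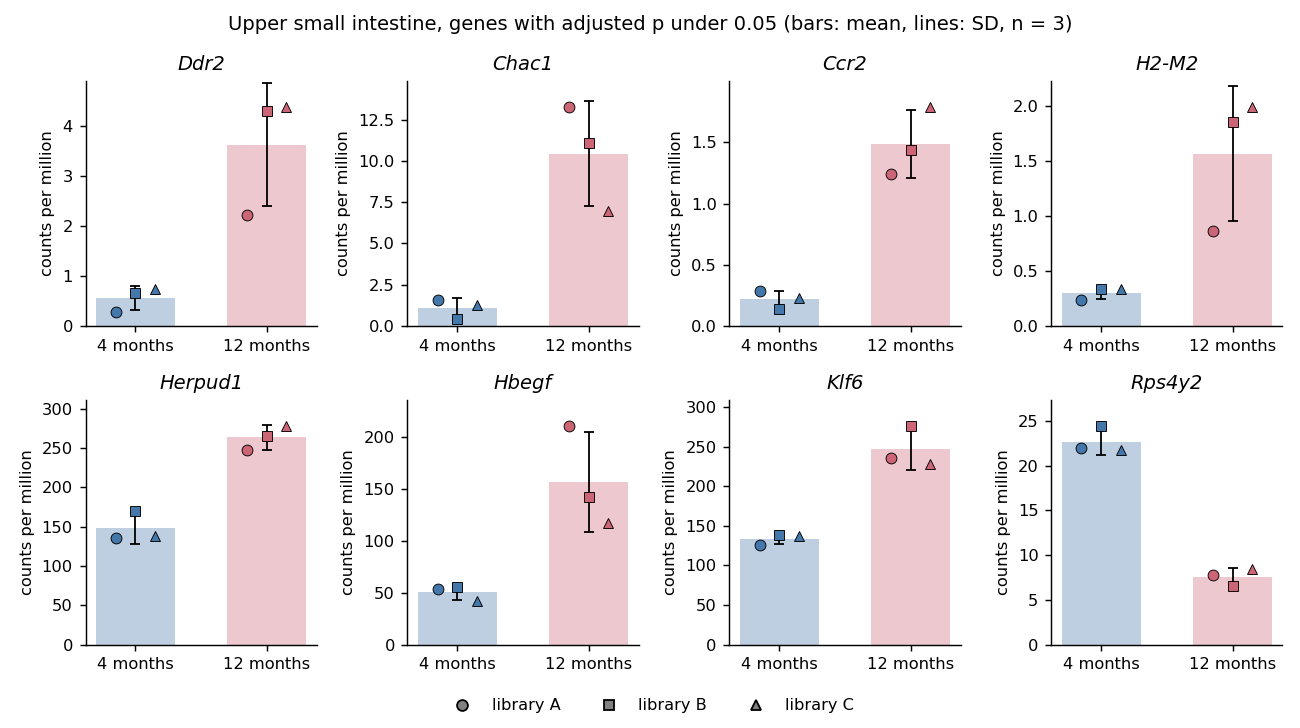
Levels in each upper small intestine library of the 8 genes with an adjusted p under 0.05. They are in CPM, counts scaled to the library total times edgeR's TMM factor. Bars are means and lines are SDs of 3 libraries, and the marker shape gives the library letter. In each panel the 3 libraries of one age lie wholly above the 3 of the other, and the low genes Ddr2, Ccr2 and H2-M2 stay below 5 CPM.

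Chac1 encodes an enzyme that breaks down glutathione and is a known target of the stress factors ATF4 and CHOP. Levels are given in CPM, counts scaled to the library total times edgeR's TMM factor. The level of Chac1 was 1.59, 0.452 and 1.29 CPM in libraries A, B and C at 4 months. It was 13.2, 11.1 and 6.97 CPM at 12 months. The lowest 12-month library thus lay several times above the highest 4-month library. The difference was 3.23 ± 0.47 on the log2 scale (standard error, n = 3 and 3, edgeR adjusted p = 0.0111), with 132 counts in total at 4 months and 1146 at 12 months.

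Herpud1 encodes a membrane protein of the endoplasmic reticulum that serves in the disposal of misfolded proteins. Libraries A, B and C held 135, 170 and 138 CPM at 4 months and 247, 265 and 278 CPM at 12 months. The groups were far apart compared with their spread, 148 ± 19.6 against 264 ± 15.7 CPM (SD, n = 3 each). The fitted difference was 0.83 ± 0.14 (log2, edgeR adjusted p = 0.0298).

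Hbegf, which encodes a growth factor that binds the EGF receptor, and Klf6, a zinc finger transcription factor, both belong to the genes induced early by stress and injury. Hbegf stood at 53.9, 55.2 and 41.6 CPM at 4 months and at 210, 142 and 117 CPM at 12 months. Library A was the highest and C the lowest of the 12-month values. Its log2 difference was 1.64 ± 0.28 (edgeR adjusted p = 0.0303). Klf6 measured 125, 138 and 137 CPM at 4 months and 235, 276 and 228 CPM at 12 months, a difference of 0.88 ± 0.15 (log2, edgeR adjusted p = 0.0303). The ages did not overlap for either gene.

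Ddr2 encodes a collagen receptor of mesenchymal cells. Its levels were low, 0.284, 0.666 and 0.730 CPM at 4 months and 2.21, 4.29 and 4.36 CPM at 12 months, which rest on 12, 28 and 26 counts against 82, 158 and 154. The difference was 2.69 ± 0.38 (log2, edgeR adjusted p = 0.0111). Ccr2, the chemokine receptor of inflammatory monocytes, had 12, 6 and 8 counts at 4 months and 46, 53 and 63 at 12 months. This corresponded to 0.284, 0.143 and 0.225 CPM against 1.24, 1.44 and 1.79 CPM (2.76 ± 0.44 on the log2 scale, edgeR adjusted p = 0.0293). H2-M2, a nonclassical class I gene of the major histocompatibility complex, had 10, 14 and 12 counts at 4 months and 32, 68 and 70 at 12 months, a difference of 2.36 ± 0.39 (log2, edgeR adjusted p = 0.0298). The 12-month A library was the lowest of its age for all 3 of these genes. Both mates of a read pair were counted, so the values rest on fewer fragments than the counts given. H2-M2 belongs to a multigene family, and how the authors' counting split reads between relatives was not tested.

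The gene that fell, Rps4y2, is a copy of the gene for ribosomal protein S4 on mouse chromosome 6. It stood at 21.9, 24.4 and 21.7 CPM at 4 months and at 7.75, 6.52 and 8.39 CPM at 12 months, with little spread at either age. The difference was -1.59 ± 0.18 (log2, edgeR adjusted p = 0.00161). The X-linked gene Rps4x, which encodes the same ribosomal protein, measured 457, 453 and 322 CPM at 4 months and 444, 363 and 339 CPM at 12 months, a difference of -0.10 (log2, edgeR adjusted p = 0.746). Reads of such near-identical copies can be split between them in counting, and the values of Rps4y2 are uncertain to that extent. The call of Rps4y2 was kept without any single library, including 4-month C.

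In the files' mouse build mm9 the genes lie at chr2:119176965-119180117 (Chac1), chr8:96910338-96919277 (Herpud1), chr13:5860735-5869639 (Klf6), chr1:171902439-172040632 (Ddr2), chr9:124016689-124028296 (Ccr2), chr17:37617796-37620497 (H2-M2) and chr6:148303178-148304120 (Rps4y2). Counts were taken over the exons of each gene.

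At 24 months, in 2 libraries, Chac1 measured 1.74 and 1.26 CPM, Herpud1 123 and 96.3 CPM, and Hbegf 58.6 and 64.4 CPM, each below the lowest 12-month library. Ddr2 stood at 7.51 and 7.26 CPM and Rps4y2 at 1.29 and 1.46 CPM, farther from 4 months than the 12-month values. A comparison of 24 with 4 months shares the 4-month libraries, so these levels are given as a description.

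Promoters are shown for genes that could carry a common element of the stress response. RefSeq promoter sequences (build GRCm38.p6, from 250 bases before to 50 after a start) were found for 47 of 57 genes, namely the 12 named higher genes and the members of the immediate early and unfolded protein lists. The element bound by ATF4 with CHOP, TGATGNAA on either strand, was present in 5 of these 47 genes (10.6%, counting a gene when any of its promoters matched), against 3.97% of all 32851 promoters. The 5 were Chac1, Herpud1, Atf3, Trib3 and Asns. The promoters of Chac1, Herpud1 and Atf3 held the same 8 letters in the reverse direction, at 193, 112 and 110 bases before the start. They are printed because Chac1 and Herpud1 passed the test and Atf3, a stress transcription factor, passed when the library letter was a block. Capitals mark the element.
Chac1 (chr2:119350992-119351291, plus strand): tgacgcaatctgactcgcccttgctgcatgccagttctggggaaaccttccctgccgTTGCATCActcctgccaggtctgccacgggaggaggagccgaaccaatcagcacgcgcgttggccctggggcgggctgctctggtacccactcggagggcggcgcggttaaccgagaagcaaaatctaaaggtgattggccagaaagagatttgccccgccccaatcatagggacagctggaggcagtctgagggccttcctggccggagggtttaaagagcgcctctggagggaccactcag
Herpud1 (chr8:94386179-94386478, plus strand): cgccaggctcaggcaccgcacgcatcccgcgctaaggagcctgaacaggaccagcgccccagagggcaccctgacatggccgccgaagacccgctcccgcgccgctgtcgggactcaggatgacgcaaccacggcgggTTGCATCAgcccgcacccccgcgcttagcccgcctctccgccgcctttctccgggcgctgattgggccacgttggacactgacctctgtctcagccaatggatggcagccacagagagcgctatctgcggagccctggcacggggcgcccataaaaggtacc
Atf3 (chr1:191183284-191183583, minus strand): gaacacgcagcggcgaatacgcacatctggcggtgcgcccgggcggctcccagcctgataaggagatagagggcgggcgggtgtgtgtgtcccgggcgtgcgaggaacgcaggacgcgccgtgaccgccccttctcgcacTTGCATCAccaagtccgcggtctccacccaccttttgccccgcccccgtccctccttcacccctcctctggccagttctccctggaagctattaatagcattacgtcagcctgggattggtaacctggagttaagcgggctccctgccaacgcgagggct
The endoplasmic reticulum stress element, CCAAT and CCACG separated by 9 bases, was in 6 of the 47 genes (12.8%, against 0.119% of all promoters), all 6 of them in the list of the unfolded protein response. The cAMP element TGACGTCA was in 4 genes (8.51% against 1.79%), the AP-1 element TGANTCA in 4 (8.51% against 7.81%) and the E-box CACGTG in 10 (21.3% against 7.15%), each read on both strands. A match is a description of letters, not of binding. The genes searched were mostly chosen as members of stress lists, so these shares do not describe the change with age. They count genes with a match in any of 56 promoters, whereas the share of all promoters counts single promoters.

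The gene lists described from here on were chosen with earlier results of these data known. Counts of their members beside the share of all genes are therefore a description. Among the 22 genes of the unfolded protein response, all of them tested, 2 rose (Chac1 and Herpud1) and none fell. Of all genes, 0.0400% were called in the higher direction. At an unadjusted p under 0.05, 6 were higher, beside 4.08% of all genes, and none lower. The ages did not overlap for 6 members in the higher direction, beside 4.16% of all genes. Without the 4-month C library 5 were called higher, where 7.05% of all genes were. The median of the list was 0.17 on the log2 scale, beside -0.04 for all genes tested. Ddit3, the gene of CHOP, measured 7.01, 5.28 and 10.03 CPM at 4 months and 14.6, 16.4 and 17.2 CPM at 12 months (1.11 ± 0.24, log2, edgeR adjusted p = 0.151). Atf4, the transcription factor upstream of it, measured 263, 257 and 247 CPM against 345, 317 and 308 CPM (0.34 ± 0.09, edgeR adjusted p = 0.369). The chaperones differed less: the log2 difference was 0.38 ± 0.19 for Hspa5, 0.09 ± 0.18 for Calr, 0.07 ± 0.18 for Hsp90b1 and -0.05 ± 0.17 for Pdia4, none of which passed. Of the 18 heat shock genes none passed, with a median of 0.04.

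Higher levels at 12 months were the rule among genes of the immediate early and dissociation response. Hbegf and Klf6 rose and none fell, and 18 of the 28 members, all tested, were higher at an unadjusted p under 0.05, beside 4.08% of all genes. The ages did not overlap for 18 members, beside 4.16% of genes, and the median was 0.75 on the log2 scale. The summed level was 5393, 4991 and 3816 CPM in libraries A, B and C at 4 months and 9959, 7443 and 6553 CPM at 12 months. All 12-month libraries thus lay above all 4-month libraries, and at both ages A was the highest and C the lowest. At 24 months the sums were 4394 and 4472 CPM.

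Atf3 measured 61.5, 68.7 and 28.2 CPM at 4 months and 268, 176 and 133 CPM at 12 months, with an edgeR adjusted p of 0.155. Fosb, a subunit of the AP-1 factor, stood at 332, 317 and 179 CPM against 1138, 617 and 513 CPM (edgeR adjusted p = 0.190). Both passed when the library letter was a block (adjusted p = 0.0307 and 0.0304). The zinc finger factor Egr2 measured 5.19, 4.16 and 4.02 CPM against 18.0, 12.5 and 11.0 CPM, and Maff, a small Maf factor, 9.90, 10.2 and 8.46 CPM against 26.3, 16.9 and 16.5 CPM. Without the block neither passed (edgeR adjusted p = 0.0886 and 0.151), and with it Egr2 passed (adjusted p = 0.0427) and Maff did not (0.0910). Fos itself had 1074, 1056 and 691 CPM against 2002, 1421 and 1280.5 CPM (edgeR adjusted p = 0.486), and Myc was the one member with a negative difference, -0.32 ± 0.16. Without the 4-month C library 6 of 28 members were called higher, where 7.05% of all genes were, and the median was 0.73.

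Other genes with little spread stood just outside the threshold. Plk3, a stress-responsive kinase, measured 39.6, 36.6 and 35.3 CPM at 4 months and 90.6, 83.1 and 73.9 CPM at 12 months, Mafk 59.1, 56.6 and 55.7 CPM against 118, 96.0 and 85.9 CPM, and Csrnp1, a nuclear factor induced by axin, 4.50, 5.37 and 5.65 CPM against 22.9, 13.8 and 13.1 CPM. Each had an edgeR adjusted p of 0.0648. Prkaa2, a catalytic subunit of the energy sensor AMPK, measured 41.2, 41.3 and 47.2 CPM against 55.5, 58.8 and 62.4 CPM (edgeR adjusted p = 0.143). With the block, the further genes called were Parp3, Ly6e, Fosb, Atf3, Klf2, Prkaa2, Igkv5-39, Igj, Egr2, Mafk and Edn2, all higher at 12 months. The adjusted p with the block was 0.0427 for Mafk, Egr2, Prkaa2 and Igkv5-39, 0.0157 for Parp3, 0.0420 for Klf2 and 0.0442 for Edn2, against 0.144 for Parp3, 0.359 for Klf2 and 0.159 for Edn2 and Igkv5-39 without it. Plk3 and Csrnp1 were not among them (0.0693 each with the block). Plk3, Mafk, Csrnp1, Egr2 and Prkaa2 all passed without the 4-month C library, with an adjusted p of 0.00665 to 0.0158.

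**Figure D2:**
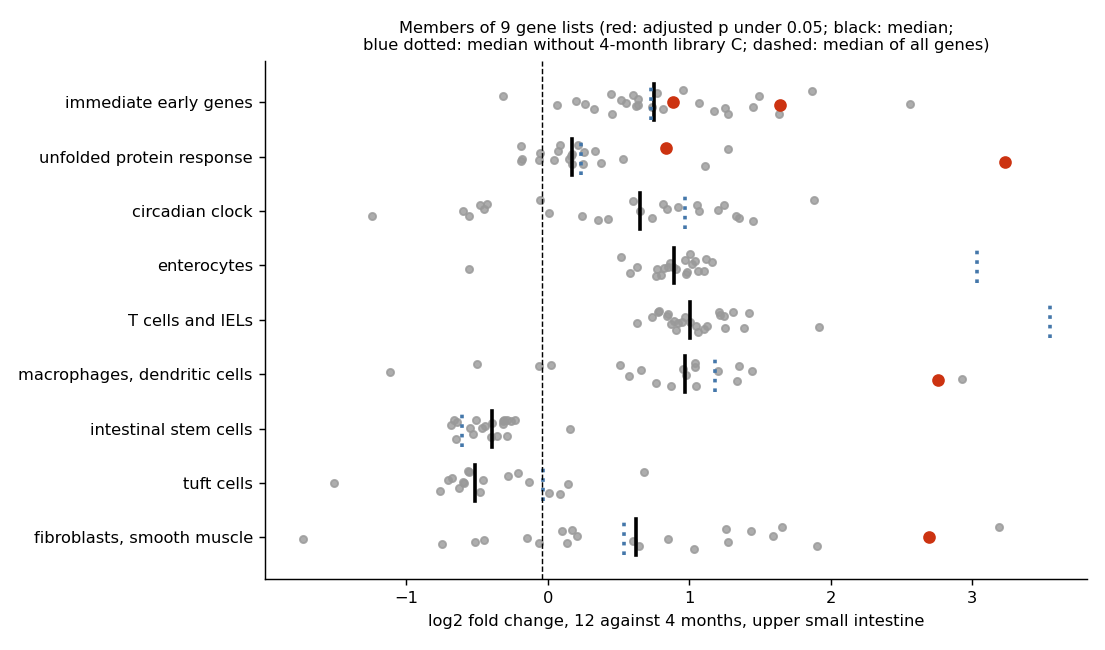
Log2 fold change between 12 and 4 months in the upper small intestine for each tested member of 9 gene lists; each point is a gene, red points have an adjusted p under 0.05, black bars are list medians, blue dotted bars are medians without the 4-month C library and the dashed line is the median of all genes. The immediate early genes lie to the right of the dashed line with either set of libraries, at a median of 0.75 or 0.73, whereas the medians of the enterocyte and T cell lists move from 0.90 to 3.03 and from 1.01 to 3.55.

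Several genes of immune and stromal cells were higher at 12 months at low absolute levels. In bulk libraries, fewer cells of a type and less RNA per cell cannot be told apart. Among the macrophage, monocyte and dendritic cell genes, 20 of 23 could be tested. Ccr2 rose and none fell, beside 0.0400% and 0.00572% of all genes. At an unadjusted p under 0.05, 7 were higher, beside 4.08% of all genes. The median was 0.97, beside -0.04 for all genes tested. Csf1r, the receptor of the macrophage growth factor, stood at 1.47, 1.71 and 1.97 CPM at 4 months and 3.18, 4.15 and 3.29 CPM at 12 months (edgeR adjusted p = 0.151), and the complement gene C1qb at 1.04, 0.618 and 0.506 CPM against 1.29, 2.66 and 1.98 CPM (adjusted p = 0.493). The summed level was 49.8 to 64.0 CPM at 4 months and 65.7 to 89.9 CPM at 12 months. Of the more general macrophage genes, Cd68 had a difference of -0.06 ± 0.18 and Itgam one of 0.02 ± 0.25.

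The fibroblast and smooth muscle list had 22 of 26 members tested and the matrix list 30 of 33. Ddr2, the same gene in each, was the only member called, beside 0.0400% of all genes in the higher direction. Decorin (Dcn), a proteoglycan of connective tissue, measured 0.190, 0.475 and 0.281 CPM at 4 months and 0.377, 3.42 and 4.96 CPM at 12 months (edgeR adjusted p = 0.327), so that the 12-month A library lay within the range of 4 months. Col1a2 measured 0.0948, 0.0951 and 0.112 CPM against 0.215, 0.543 and 0.397 CPM. Summed fibroblast levels were 19.8 to 25.1 CPM at 4 months and 27.2 to 37.5 CPM at 12 months. Of the 22 tested genes of the fibroblast list, Ddr2 included, 16 had a positive difference, at a median of 0.62. The ages did not overlap for 4 of them in the higher direction, beside 4.16% of all genes. Ddr2 in the 12-month A library, at 2.21 CPM, lay above its 4-month range, where Dcn did not. The part of these markers in the difference of Ddr2 was not tested.

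In the list of B and plasma cells 13 of 14 genes were tested and none was called. At an unadjusted p under 0.05, 4 were higher, beside 4.08% of all genes. The immunoglobulin J chain gene (Igj) measured 8.15, 8.13 and 9.55 CPM at 4 months and 20.9, 34.0 and 16.1 CPM at 12 months. It passed with the block (adjusted p = 0.0427) and not without it (edgeR adjusted p = 0.311). Of 35 interferon response genes none passed with all libraries, and their median was 0.05. Without the 4-month C library 5 were called higher, where 7.05% of all genes were, and the median was 0.54. The highest-ranked of them was Ly6e, a surface protein gene, with 288, 304 and 211 CPM against 437, 444 and 399 CPM (edgeR adjusted p = 0.151, or 0.0298 with the block). The 11 genes of class II antigen presentation all had positive differences with a median of 0.69, none was called, and their summed level ran from 532 to 1495 CPM at 4 months and 1115 to 2636 CPM at 12 months. Of 26 chemokine genes tested Ccr2 alone passed, the same call as in the macrophage list, beside 0.0400% of all genes called higher. Mast cell and granulocyte, vessel and red cell, and enteric neuron lists had no call in 13, 14 and 11 genes tested, with medians of 0.13, 0.11 and -0.12. The first was 0.81 without the 4-month C library, and the second 0.68 without the 12-month A library.

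The T cell and intraepithelial lymphocyte genes followed the 4-month C library. Their summed level was 43.2, 31.7 and 478 CPM in libraries A, B and C at 4 months, and 253, 376 and 466 CPM at 12 months. Library C of 4 months was thus the highest of the 6, and A and B the lowest. Cd3g, a subunit of the T cell receptor complex, measured 1.21, 0.689 and 21.7 CPM against 11.1, 15.2 and 19.5 CPM. Granzyme A (Gzma) measured 5.83, 6.18 and 139 CPM against 61.3, 98.4 and 120 CPM. None of the 25 genes was called with all libraries, at a median of 1.01. Without library C 23 of 25 were called higher, where 7.05% of all genes were, and the median was 3.55. With all libraries, the ages did not overlap for 5 of the 25 in the higher direction, beside 4.16% of all genes. Among these were the members with the smallest p, Cd69, Itgal, Cd4 and Xcl1. Cd69, an activation marker, stood at 0.948, 0.452 and 1.18 CPM against 1.86, 2.63 and 1.62 CPM (edgeR adjusted p = 0.466).

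Enterocyte genes showed the same split. The 22 members summed to 4673, 3896 and 33210 CPM in libraries A, B and C at 4 months and to 15382, 24610 and 38156 CPM at 12 months. Sucrase-isomaltase (Sis), the brush border enzyme for sucrose, measured 466, 252 and 3907 CPM against 1693, 3182 and 4656 CPM, and villin (Vil1), an actin bundler of microvilli, 584, 546 and 1766 CPM against 983, 1414 and 1936 CPM. In both, library C of 4 months exceeded the 12-month A and B libraries. None of the 22 was called, and 21 had a positive difference. Without library C 19 were called higher, where 7.05% of all genes were, with a median of 3.03. Beside the same share of all genes, the counts were likewise 0 with all libraries and 18 without C for the 23 genes of fat absorption, 0 and 18 for the 22 genes of sugar and peptide uptake, and 0 and 16 for the 27 tested genes of xenobiotic and glutathione enzymes. In the last list Ces1f, a carboxylesterase, measured 50.5, 71.7 and 113 CPM against 92.1, 151 and 163 CPM (edgeR adjusted p = 0.416).

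**Figure D3:**
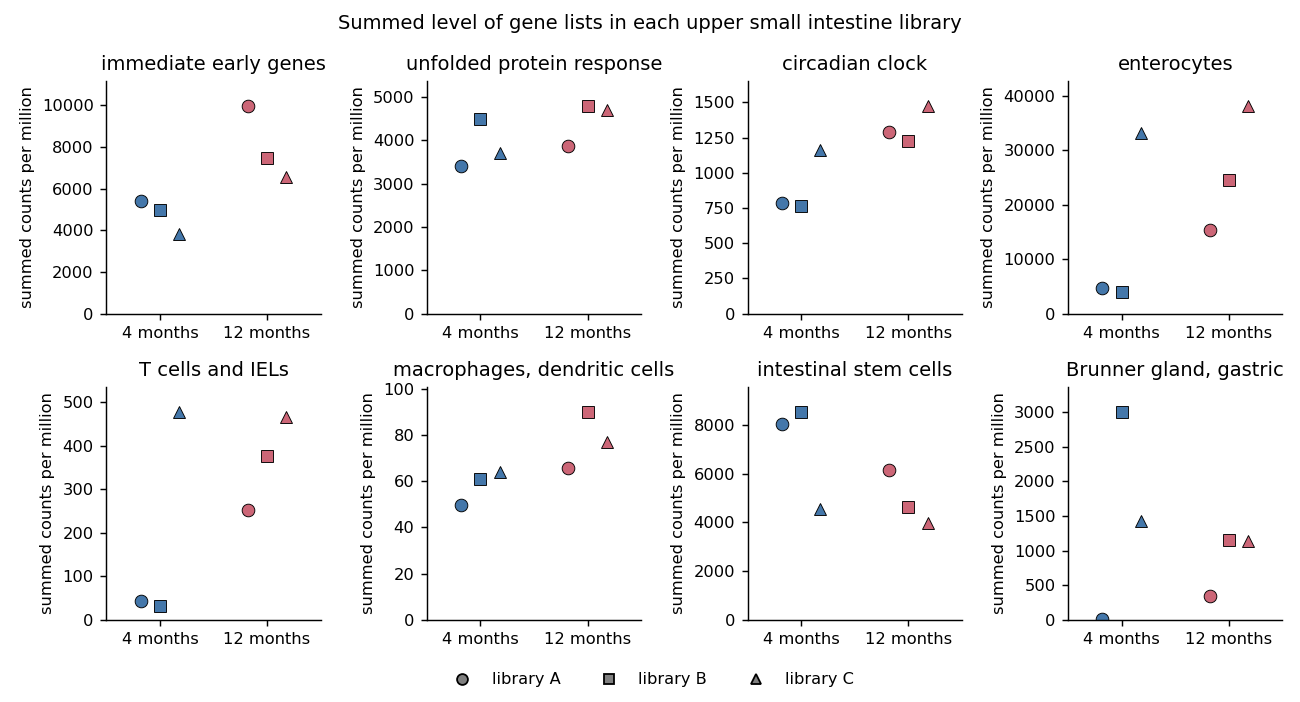
Summed CPM of 8 gene lists in each upper small intestine library, by age, with the marker shape giving the library letter. The immediate early genes separate the ages, at 3816 to 5393 against 6553 to 9959, while for enterocytes, T cells and stem cells the 4-month C library lies with the 12-month libraries.

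Mineral transport, fat oxidation and cholesterol genes had no call in 20, 23 and 24 tested members, with medians of 0.23, 0.28 and 0.01. When the 4-month C library was left out, 3, 5 and 2 of them were called higher, where 7.05% of all genes were, and the medians were 0.45, 0.37 and -0.02. Mitochondrially encoded genes rose in none of 13 cases by the adjusted test and had a median of 0.27, at a summed 91544 to 143643 CPM at 4 months and 128112 to 165201 CPM at 12 months. Of the 13, 7 were called higher without the 4-month C library, where 7.05% of all genes were, and the median was 0.48. Regional identity lists had no call either. The median was 0.19 for 18 tested genes of the upper small intestine, 0.86 for 9 of the lower small intestine and 0.40 for 14 of the colon. Without the 4-month C library 7, 4 and 3 of them were called higher, where 7.05% of all genes were, and the medians were 0.49, 1.52 and 0.67. The median of the lower small intestine list was 0.46 without the 4-month A library. Genes of the stomach and of Brunner glands differed between libraries of 4 months, with a summed 10.9, 2999.9 and 1422 CPM in A, B and C, against 344, 1154 and 1138 CPM at 12 months. Gastrokine 1 (Gkn1), a stomach surface protein, measured 0.142, 751 and 371 CPM against 88.3, 285 and 281 CPM. None of the 8 tested genes of this list was called. Pancreatic acinar genes, 18 tested, had no call and a median of -0.14, which ran from -0.70 to 0.22 without 1 library at a time.

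None of 25 clock genes was called, at a median of 0.65. At an unadjusted p under 0.05, 5 were higher and 3 lower, where 4.08% and 4.83% of all genes were. Dbp, an output factor of the clock, measured 1.04, 0.713 and 43.1 CPM in libraries A, B and C at 4 months and 26.9, 25.6 and 50.3 CPM at 12 months (1.20 ± 1.31, log2, edgeR adjusted p = 0.681). Its difference was 5.28 without library C of 4 months (adjusted p = 0.0414) and 2.81 with the library letter as a block (adjusted p = 0.337). Arntl, the gene of the activator BMAL1, ran the other way, with 57.0, 59.9 and 21.6 CPM against 19.2, 23.2 and 16.2 CPM (edgeR adjusted p = 0.486). Library C of 4 months again lay with the 12-month libraries for both. The ages did not overlap for 4 of the 25 genes in the higher direction, beside 4.16% of all genes, and Per1 and Bhlhe40 were among the 4. Per1 measured 23.1, 30.9 and 36.8 CPM against 77.6, 66.1 and 84.3 CPM (edgeR adjusted p = 0.322), and Bhlhe40 109, 103 and 122 CPM against 209, 170 and 176 CPM (edgeR adjusted p = 0.243). Without library C 9 clock genes were called higher and 1, Arntl, lower, where 7.05% and 2.78% of all genes were. The clock levels moved with the enterocyte and lymphocyte levels across the 4-month libraries, and their part in those differences was not tested.

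Stem cell genes had negative differences in 19 of 20 cases, with 8 lower at an unadjusted p under 0.05, where 4.83% of all genes were, and a median of -0.40. None was called. Lgr5, the stem cell receptor at which the reporter was inserted, measured 100, 68.4 and 44.7 CPM at 4 months and 66.5, 39.0 and 29.1 CPM at 12 months (-0.66 ± 0.29, edgeR adjusted p = 0.542). Axin2, a Wnt target, measured 249, 208 and 137 CPM against 178, 123 and 118 CPM (edgeR adjusted p = 0.493), and the RNA-binding protein gene Msi1 54.0, 46.0 and 30.5 CPM against 34.0, 25.5 and 21.6 CPM. In all 3 genes library A was the highest and C the lowest at both ages. The summed level was 8020, 8524 and 4537 CPM against 6166, 4642 and 3969 CPM. Without library C 6 stem cell genes were called lower, where 2.78% of all genes were. The 33 cell cycle genes had a median of -0.31 and the 27 tested genes of Wnt and Notch signalling one of -0.14, with no call. Hes1, the Notch target, did not overlap, at 75.1, 64.4 and 71.8 CPM against 60.8, 54.7 and 52.7 CPM (edgeR adjusted p = 0.410).

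Secretory cell genes had no call. The summed Paneth cell level was 29547, 22727 and 13069 CPM in libraries A, B and C at 4 months and 27055, 15755 and 13475 CPM at 12 months, with A the highest and C the lowest at both ages. Goblet and enteroendocrine lists had medians of -0.03 and 0.13 over 18 and 23 genes. Tuft cells, the chemosensory cells of the epithelium, had a median of -0.52 over 18 tested genes. At an unadjusted p under 0.05, 5 of these were lower, where 4.83% of all genes were. The ages did not overlap in the lower direction for 4 genes of tuft cells, beside 4.55% of all genes. Pou2f3, the transcription factor that specifies them, measured 8.72, 7.70 and 8.99 CPM against 7.16, 4.70 and 4.96 CPM, and Dclk1, a kinase used as their marker, 26.0, 25.4 and 32.2 CPM against 21.3, 17.9 and 17.3 CPM (edgeR adjusted p = 0.486 for each). Without library C, the highest of the 4-month libraries for these genes, the tuft list had a median of -0.03. Antimicrobial and barrier genes, 21 tested, had a median of -0.08 and 3 lower at an unadjusted p under 0.05, where 4.83% of all genes were. The first of these was Duox2, an oxidase of the epithelial surface, at 40.0, 168 and 108 CPM against 48.7, 68.8 and 31.9 CPM.

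Enzymes of DNA methylation had no call among 22 tested genes with all libraries. The maintenance methyltransferase Dnmt1 measured 208, 218 and 134 CPM at 4 months and 172, 144 and 136 CPM at 12 months (-0.31 ± 0.19, edgeR adjusted p = 0.549), and its partner Uhrf1 120, 143 and 87.7 CPM against 111, 86.1 and 80.0 CPM (adjusted p = 0.557). Dnmt3a, which methylates new sites, stood at 64.9, 66.7 and 54.9 CPM against 57.1, 52.9 and 56.8 CPM (-0.16 ± 0.09). Its relative Dnmt3b did not overlap between ages, at 8.91, 9.51 and 6.52 CPM against 5.98, 5.13 and 5.24 CPM, and did not pass (-0.61 ± 0.21, edgeR adjusted p = 0.493). Its difference without the 4-month C library was -0.76 (adjusted p = 0.0355), and 2 genes of the list, Gadd45a and Idh1, were called higher and 3, Dnmt3b, Zbtb38 and Uhrf2, lower, where 7.05% and 2.78% of all genes were. Tet1, Tet2 and Tet3, which oxidize methylated cytosine, had differences of -0.11 ± 0.34, 0.04 ± 0.17 and 0.14 ± 0.09. Senescence and p53 target genes, imprinted genes and ribosomal protein genes had medians of 0.04, 0.01 and -0.13 over 22, 18 and 18 tested members, with no call but that of Rps4y2. Pmaip1, a p53 target that promotes cell death, measured 17.0, 19.6 and 27.9 CPM against 31.7, 40.7 and 35.7 CPM (edgeR adjusted p = 0.493).

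In the lower direction, genes other than Rps4y2 had small differences or low levels. The 11 with the smallest p and no overlap were Ngrn, Amotl1, Dgke, Acss1, Raet1c, D0H4S114, 9930104L06Rik, Ppih, Cstf2t, Mblac1 and Fam164a, with differences of -0.29 to -2.29 on the log2 scale and an edgeR adjusted p of 0.311 to 0.410. All 11 passed without the 4-month C library, with an adjusted p of 0.00610 to 0.0416, where 2.78% of all genes were called lower. Acss1, a mitochondrial enzyme that makes acetyl-CoA from acetate, measured 108, 118 and 94.1 CPM at 4 months and 92.1, 79.1 and 79.6 CPM at 12 months. Amotl1, of the cell junctions, measured 1.61, 6.32 and 1.46 CPM against 0.646, 0.652 and 0.623 CPM, and most of its mean difference lay in the 4-month B library. Raet1c, which encodes a ligand of the lymphocyte receptor NKG2D, measured 2.58, 2.71 and 0.927 CPM against 0.727, 0.815 and 0.680 CPM.

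**Figure D4:**
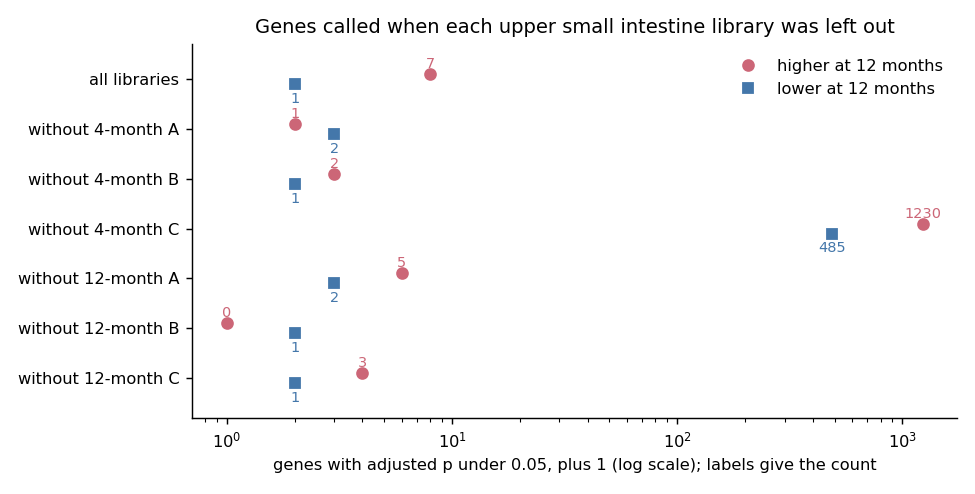
Number of genes with an adjusted p under 0.05, higher (circles) and lower (squares), with all libraries and after leaving out each of the 6 upper small intestine libraries; the axis is the number plus 1 on a log scale and the printed labels give the number. Leaving out the 4-month C library gives 1230 higher and 485 lower, and each other omission leaves at most 5 higher and 2 lower.

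The count changed most when the 4-month C library was left out. Of the 1715 genes called without it, 1619 (94.4%) lay nearer in that library to the mean of the 12-month libraries than to the mean of A and B of 4 months, on the log2 scale. Only 8 genes were called with it included, so the 1715 were chosen through its removal. The share is largely set by that choice and is a description. Along the first principal component of the 6 libraries, which held 70.7% of the variance, A and B of 4 months scored -45.1 and -45.6, C of 4 months 32.3, and the 12-month libraries -0.50, 19.98 and 39.0. The smallest p in the higher direction without it belonged to Pik3cd, Rcsd1 and Ptprc, the gene of the leukocyte antigen CD45, and in the lower direction to Rps4y2, Raet1c and Grlf1. A change of cell make-up with age and a difference between the preparations A, B and C cannot be told apart with 3 libraries an age. The 8 genes called with all libraries were called without library C as well. So were Ddit3, Atf3, Fosb, Maff, Csf1r, Igj, Ly6e, Per1, Bhlhe40, Cd69, Itgal, Xcl1, Cd3g, Gzma, Sis, Vil1, Ces1f, Pmaip1, Axin2 and Msi1, which are described above as not called with all libraries.

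The change from 4 to 12 months was compared with that in the other sections by a test of the difference. This test treated all libraries as independent. At 4 months, library B held 5749, 4915 and 7301 Y-chromosome counts in the USI, LSI and colon. Libraries A and C held 12 or fewer. Libraries of the same letter and age may thus share mice across sections. This was not modelled, so the p-values of the difference are uncertain to that extent. Between USI and LSI no gene differed (0% of genes, 353 at an unadjusted p under 0.05, and 0 by DESeq2). Between USI and colon 1 gene differed, or 0.00572% (711 at an unadjusted p under 0.05, and 40 by DESeq2). This was Rps4y2, which stood in the colon at 8.32, 6.06 and 7.10 CPM at 4 months and at 0.635, 0.526 and 0.545 CPM at 12 months. Its difference was -3.65 ± 0.22 in the colon, and that of the USI lay 2.06 ± 0.28 above it (log2, edgeR adjusted p = 0.0146). This call was lost without the 4-month A library and without the 12-month C library of the USI. In the LSI the gene measured 25.8, 25.3 and 22.3 CPM against 8.31, 5.86 and 8.51 CPM, a difference of -1.69 ± 0.18.

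**Figure D5:**
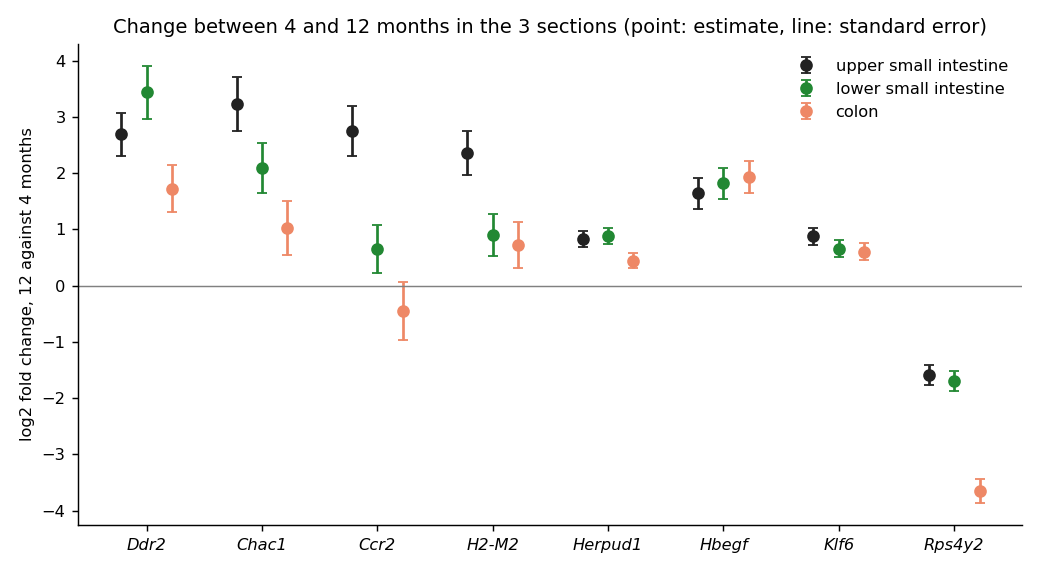
Log2 fold change between 12 and 4 months with its standard error for the 8 genes in the upper small intestine, the lower small intestine and the colon. Hbegf lies between 1.64 and 1.94 in the 3 sections, Ccr2 has estimates of 2.76, 0.66 and -0.45, and Rps4y2 is lowest in the colon.

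For the other genes the sections stood side by side as follows. Hbegf had a difference of 1.82 ± 0.28 in the LSI and 1.94 ± 0.28 in the colon, and Herpud1 one of 0.88 ± 0.14 and 0.45 ± 0.14. Ddr2 had 3.44 ± 0.47 in the LSI and 1.72 ± 0.42 in the colon. The ages did not overlap in either section for these 3 genes, nor for Chac1 and Klf6. The share of all genes without overlap there was not counted. In the LSI Ddr2, Herpud1 and Hbegf passed (edgeR adjusted p = 0.00701, 0.0150 and 0.0150). Chac1 and Klf6 did not (0.178 and 0.306). In the colon Hbegf passed (edgeR adjusted p = 0.00740), and Ddr2, Klf6, Herpud1 and Chac1 did not. H2-M2 had 0.90 ± 0.37 in the LSI and 0.72 ± 0.41 in the colon, passed in neither, and overlapped in the colon. Ccr2 had 0.66 ± 0.43 in the LSI and -0.45 ± 0.51 in the colon, where its ages overlapped, but the test of the difference was not passed (edgeR adjusted p = 1.00 against the LSI and 0.252 against the colon). The immediate early list had a median of 0.72 in the LSI and 0.65 in the colon, beside 0.75 in the USI, and the enterocyte list 0.22 and 1.25, beside 0.90.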

How the data were processed

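The deposited values are raw counts per gene. Per the file headers, the authors ran featureCounts 2.0.0 against Ensembl genes of mm9, unstranded and with each mate counted. The methods name STAR and edgeR and the submitters' notes TopHat2, HTSeq and Cuffdiff. Totals of the 6 USI libraries were 35470986 to 38203709.

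edgeR 4.0.16 (R 4.3.3) with TMM factors and filterByExpr fitted the quasi-likelihood model to all 24 libraries in 9 groups, with 15 residual degrees of freedom, and two-sided p-values were adjusted by Benjamini and Hochberg over 17491 genes. Libraries were treated as independent. Those of the same letter and age may share mice across sections, and the 15 degrees of freedom may then be too many. The biological coefficient of variation, edgeR's measure of spread between libraries, was 22.1% over all libraries. In the USI libraries alone it was 28.4%, with 4 residual degrees of freedom. The spread used for the USI comparison may thus be too small. Levels are CPM. Tables and figures used Python 3.11.15. The steps were tested on simulated data.

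Named genes are those with an adjusted p under 0.05, then up to 12 a direction with the smallest p, a mean of at least 1 CPM and no overlap, up to 4 a list, and Lgr5, Dbp and methylation enzymes. Some further list members were named after their values were seen. Members and the 41 lists were chosen with earlier results of these data known; 820 of 823 list symbols matched. Sequences are RefSeq's, from GRCm38.p6.

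Same-lettered libraries of the 2 ages deviated together (correlations of 0.66 for A, 0.19 for B and 0.70 for C; 0.31 for 4-month B with 12-month A), although the labels give no shared source, so blocked values are printed where they change a call. Alternatives were DESeq2 1.42.0, RLE factors, other filters, samples and thresholds, halved counts and each library left out. Leaving out all 4-month C libraries and an enterocyte covariate were chosen after seeing the data.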

Additional observations from a re-analysis of the deposited data

Results flagged for a closer look

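Rps4y2 fell more between 4 and 12 months in the colon than in the USI. The fall in the USI was smaller than that in the colon by 2.06 on the log2 scale, by the test of the difference itself. The 3 libraries of each age did not overlap in either section. The call of this difference was lost without the 4-month A or the 12-month C library of the USI, where 0 genes passed (558 and 487 at an unadjusted p under 0.05). Groups of 3 libraries were too small for a check of single outlying values.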

How the results depend on the processing

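The direction of the 8 called genes was kept under each of the 18 alternatives, and Rps4y2 passed in 16 of them, Chac1 in 14, Ddr2 in 13, Herpud1 and Hbegf in 11, Ccr2 and H2-M2 in 10 and Klf6 in 9. Against 7 genes higher and 1 lower, the counts were 65 and 7 with DESeq2, 18 and 1 with the replicate block, 11 and 1 with no filter, with halved counts, with the small intestine libraries or at an adjusted p under 0.1, and 2 and 2 without the B libraries of 4 and 24 months, which carried Y-linked counts. They were 0 and 0 with the USI libraries alone, without and with the block (609 and 2663 genes at an unadjusted p under 0.05). Alternatives chosen after seeing the data gave 1902 and 1668 without the C libraries of 4 months, and 10 and 2 with an enterocyte term. With the enterocyte term 4 of the 8 genes were still called, and Ccr2, H2-M2, Herpud1 and Klf6 were lost. Without the B libraries of 4 and 24 months Ddr2, Ccr2, H2-M2, Hbegf and Klf6 were lost. Without 1 USI library at a time the count was 0 to 1230 higher and 1 to 485 lower. The difference between USI and LSI gave 0 genes, and 0 to 1 without 1 library at a time. That between USI and colon gave 1 gene, 40 with DESeq2, 2 with the block, 386 without the C libraries of 4 months, 3 with an enterocyte term, and 0 to 163 without 1 library at a time. The cause of these shifts was not tested. In the fit to all libraries, blocking on the library letter lost none of the 8 calls. Ddr2, Ccr2 and H2-M2 rest on 26 to 66 counts in all at 4 months. Each mate was counted, so a read pair can enter more than once and the fragments behind these counts are fewer. Among counts of 1 to 20, 68.2% to 70.1% were even in the 6 libraries.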
